A study of Mus musculus with 43 samples.

Results

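Integrins are receptors made of 1 alpha and 1 beta chain that hold cells to the extracellular matrix, and laminins are the alpha, beta and gamma chain trimers that build the basement membrane around each fat cell. The genes described here are the 37 gene symbols in the deposited mouse count tables whose names begin Itga, Itgb, Lama, Lamb or Lamc followed by a chain number or letter, of 26264 symbols in all. They comprise 18 integrin alpha, 8 integrin beta, 5 laminin alpha, 3 laminin beta and 3 laminin gamma genes. The name pattern alone chose them and uses no measured value, although earlier results of these data were known when it was chosen.

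Which chains a cell makes decides which matrix it can hold: alpha-5 and alpha-v integrins bind fibronectin and vitronectin, alpha-3, alpha-6 and alpha-7 integrins bind laminins, and the beta-2 and beta-7 integrins belong to leukocytes. Fat cells sit in a laminin-rich basement membrane, in which the alpha-4 laminin chain is a characteristic component. RUNX1 and RUNX2 are transcription factors that share a DNA-binding domain and are best known from blood and bone.

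The study measured RNA in 43 libraries of 15 groups, held in 6 count tables, and its title concerns the loss of RUNX1 or RUNX2 in fat cells and beige fat. Cultures of a line labelled BAT, differentiated to mature brown adipocytes, overexpressed Runx1 (OE Runx1) or Runx2 (OE Runx2) and were set against the control labelled OEV, whose genotype is given as WT. Further BAT cultures carried a knockout of Runx1, of Runx2 or of both, against a knockout control labelled WT, and another pair carried Runx2 with its IDR deleted against full length Runx2. White adipose tissue labelled IWAT, the usual abbreviation of the inguinal depot, came from Adipoq-cre:Runx1 KO against Runx1 flox and from Adipoq-cre:Runx2 KO against Runx2 flox. A last pair of IWAT groups, labelled HFD, was a Runx1 knockout against WT. The counts used for this pair do not carry the label HFD. They were matched to these samples as the only counts left whose names fitted, and the replicate numbers follow the count columns. Groups held 3 libraries each, except the IDR pair with 2 each. Adipoq-cre acts in adiponectin-expressing fat cells, so other cells of the depot keep the floxed gene, and the labels give no Cre driver for the HFD knockout. The labels spell out neither IDR nor HFD, give no age, sex or clone, and do not state that replicates were separate cultures or animals. The p-values therefore measure the spread between these libraries, which may be technical.

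Library totals were 28.1 to 52.2 M counts. All values are CPM, counts scaled to a common library size with edgeR's TMM factors. Fold changes are log2 values with their standard error (SE), and a gene is called at an adjusted p under 0.05 over all genes tested in edgeR's quasi-likelihood test. Runx1 averaged 73.8 ± 10.4 CPM in OE Runx1 cultures, against 5.57 ± 1.23 CPM in OEV controls, and Runx2 averaged 309 ± 25.8 CPM in OE Runx2 cultures, against 8.77 ± 0.892 CPM in OEV controls (SD, n = 3 each). Runx1 also reached 30.3 ± 2.03 CPM in OE Runx2 cultures, and Runx2 reached 16.8 ± 1.36 CPM in OE Runx1 cultures (SD, n = 3 each). Both were called higher than in OEV controls (edgeR adjusted p 2.3e-07 and 3.1e-05). In the knockout cultures the targeted mRNAs were not lowered: Runx1 averaged 5.43 ± 1.13 CPM in Runx1 knockout cultures, against 5.24 ± 2.62 CPM in controls, and Runx2 averaged 7.61 ± 0.956 CPM in Runx2 knockout cultures, against 7.71 ± 1.28 CPM in controls. In IWAT, Runx1 had 20.7, 20.7 and 21.4 CPM in Runx1 KO, against 25.3, 28.4 and 42.8 CPM in Runx1 flox animals, and Runx2 had 3.82, 6.74 and 2.40 CPM in Runx2 KO, against 14.98, 10.49 and 4.19 CPM in Runx2 flox animals. In the HFD set Runx1 had 12.99, 13.89 and 8.15 CPM in the knockout, against 8.68, 16.6 and 17.9 CPM in WT. None of these 3 differences was called by edgeR, and the Runx2 and HFD values overlapped. A count over the whole gene does not show whether the remaining transcript is intact. The 4 brown adipocyte markers summed to 15.1 to 33.4 CPM in OE Runx1 and 3.88 to 5.88 CPM in OE Runx2 cultures, against 170 to 286 CPM in OEV controls, so the overexpressing cultures held little RNA of the markers of their labelled cell type. Several libraries stood apart from their group. Cardiac muscle transcripts summed to 1410 CPM in OE Runx1 replicate 3 and to 91.3 and 370 CPM in OEV control replicates 1 and 2, against at most 1.69 CPM in the other libraries of that table. The double knockout replicate 1, the third Runx2 flox library and the skeletal muscle content of IWAT are taken up beside the results they touch.

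In the OEV control cultures the levels per kilobase of exon ran from Itgb1 downwards. Itgb1, the beta chain shared by most matrix-binding integrins, averaged 104 ± 9.45 CPM per kb (SD, n = 3), and Lamc1, the gamma chain of most laminins, averaged 79.6 ± 6.76 CPM per kb. Lamb1 (46.4 ± 2.08) and Lamb2 (43.7 ± 1.53 CPM per kb) came next and overlapped each other, followed by Lama4 at 36.9 ± 2.34, Itgb5 at 31.4 ± 3.19 and Itga6 at 23.7 ± 1.13 CPM per kb. The next 5 genes, Itga7, Itga5, Itgav, Lamb3 and Lama5, lay between 11.5 and 6.76 CPM per kb, and each overlapped its neighbour in that order. The RNA of these cultures was therefore led by Itgb1 with the Lama4, Lamb1 or Lamb2, and Lamc1 laminin chains. In IWAT of Runx1 flox animals, a table scaled separately, Itgb1 was again first, at 92.9 CPM per kb, but the leukocyte chains Itgb7 (51.0) and Itgb2 (42.0 CPM per kb) came before Lamc1 (27.5 CPM per kb) and overlapped each other. In bulk samples such as these, fewer cells of a type and less RNA per cell cannot be told apart.

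**Figure D1:**
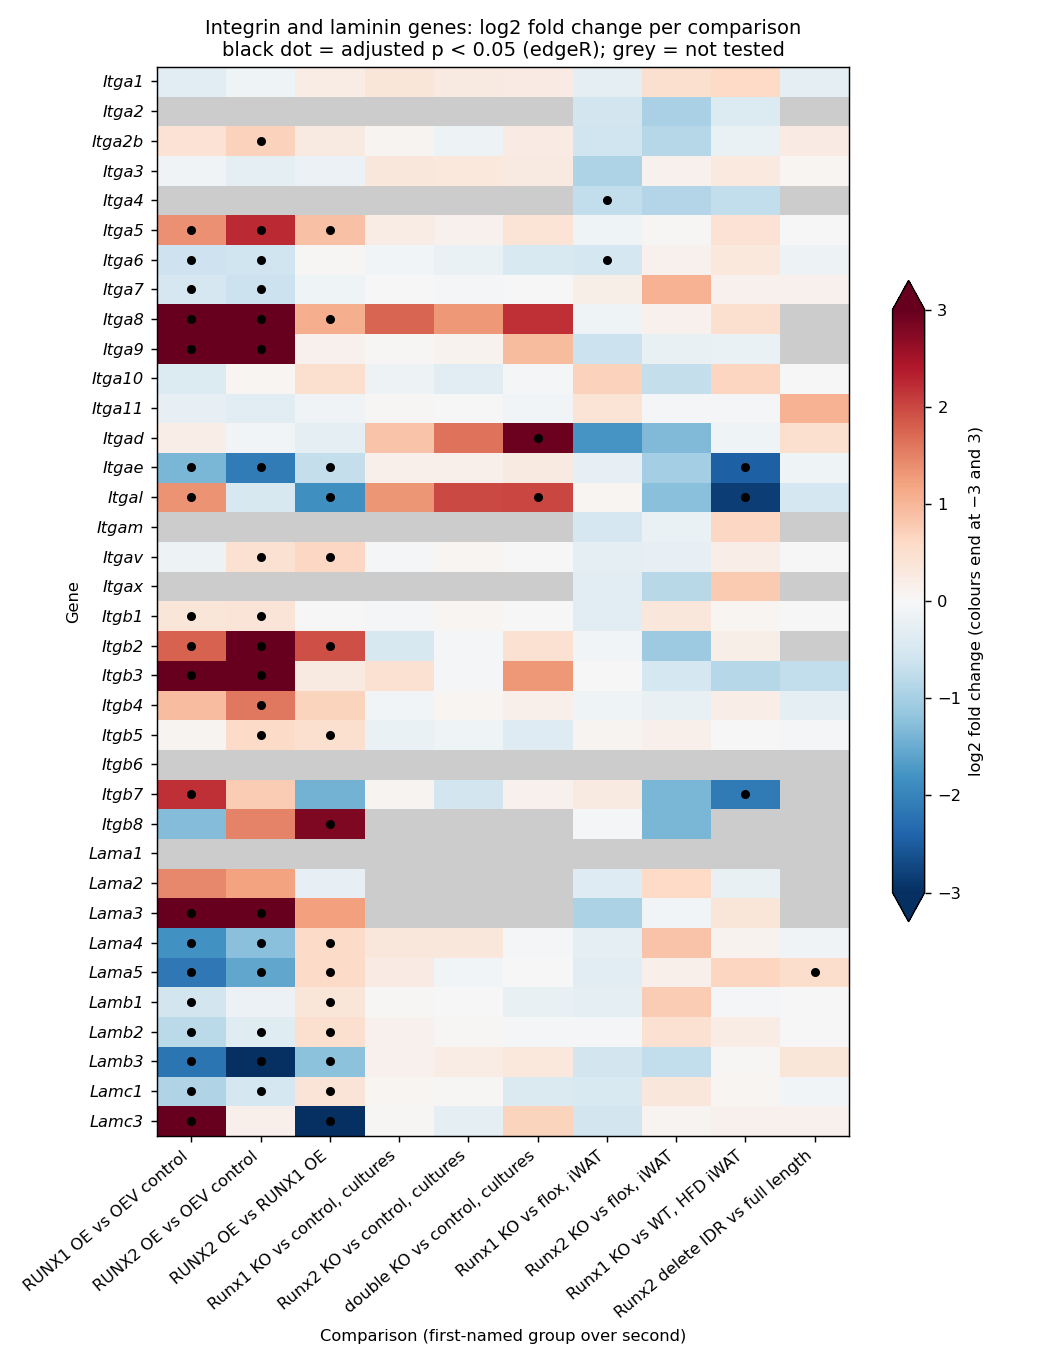
Log2 fold changes of the genes (rows; 1 of the 37 is not shown) in the 10 comparisons (columns), with the first-named group over the second; red is higher and blue lower in the first-named group, black dots mark genes called by edgeR and grey cells were not tested. Dots crowd the 3 overexpression columns, and the other columns hold at most 3.

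With overexpression of either factor more integrin genes rose than fell and more laminin genes fell than rose. With RUNX1, 8 of 21 tested integrin genes rose and 3 fell, while 2 of 10 tested laminin genes rose and 7 fell. With RUNX2, 10 integrin genes rose and 3 fell, and 1 laminin gene rose and 6 fell. Itgb3, Itga9, Itga8, Itga5 and Itgb2 were among the integrin genes that rose in each comparison, and Lama4, Lama5, Lamb3 and Lamc1 were among those that fell in each. Both comparisons use the same OEV control libraries, so their values are given side by side and are not independent of each other. Among the 31 members tested, 20 were called with RUNX1 (10 higher and 10 lower), where 54.0% of all tested genes were called, 28.2% higher and 25.8% lower. With RUNX2 20 were called (11 higher and 9 lower), where 60.9% of all tested genes were called, 31.3% higher and 29.6% lower. The members' shares therefore lay near the background, and their median log2 fold changes were -0.10 with RUNX1 and 0.07 with RUNX2, against 0.06 and 0.03 over all tested genes. The integrin median was 0.20 with RUNX1 and 0.46 with RUNX2, and the laminin median was -0.86 with RUNX1 and -0.44 with RUNX2. Itga2, Itga4, Itgam, Itgax, Itgb6 and Lama1 had too few counts to be tested.

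Among receptors for fibronectin, vitronectin and related ligands, Itgb3 moved most clearly. Itgb3, the beta chain that pairs with alpha-v and with the platelet chain Itga2b, had 29.7, 24.5 and 30.4 CPM in OE Runx1 cultures and 32.6, 34.0 and 35.7 CPM in OE Runx2 cultures, against 1.05, 0.805 and 2.05 CPM in OEV controls. Every overexpressing library lay far above every control. The log2 fold change was 4.39 (SE 0.26, edgeR adjusted p 1.7e-07) with RUNX1 and 4.67 (SE 0.26, edgeR adjusted p 4.8e-08) with RUNX2. Itga9, an alpha chain that binds tenascin-C and osteopontin with beta-1, had 7.20, 10.7 and 9.19 CPM in OE Runx1 and 8.91, 11.9 and 8.81 CPM in OE Runx2 cultures, against 0.165, 0.470 and 0.150 CPM in OEV controls. The groups did not overlap, and the log2 fold changes were 5.14 (SE 0.37, edgeR adjusted p 7.6e-07) with RUNX1 and 5.26 (SE 0.37, edgeR adjusted p 3e-07) with RUNX2. Without OEV control replicate 2, the highest control, they were 5.81 and 5.96. Itga8, which pairs with beta-1 and binds nephronectin, had 7.16, 5.59 and 7.18 CPM in OE Runx1 and 11.1, 14.9 and 16.7 CPM in OE Runx2 cultures, against 0.758, 0.268 and 0.850 CPM in OEV controls. It rose by 3.38 (SE 0.33, edgeR adjusted p 7.4e-06) with RUNX1 and by 4.48 (SE 0.34, edgeR adjusted p 5.1e-07) with RUNX2, again without overlap.

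Itga5, the alpha chain of the main fibronectin receptor, was the most abundant of the integrins that rose strongly. It had 124, 115 and 106 CPM in OE Runx1 and 230, 212 and 191 CPM in OE Runx2 cultures, against 43.2, 33.6 and 56.6 CPM in OEV controls. The 3 groups did not overlap, with log2 fold changes of 1.37 (SE 0.16, edgeR adjusted p 3.1e-05) with RUNX1 and 2.24 (SE 0.16, edgeR adjusted p 4.3e-07) with RUNX2. Itgb1 itself changed little in size, with 546, 542 and 565 CPM in OE Runx1 and 514, 564 and 580 CPM in OE Runx2 cultures, against 443, 381 and 452 CPM in OEV controls. All overexpressing libraries lay above all controls, at log2 fold changes of 0.37 (SE 0.091, edgeR adjusted p 0.0048) and 0.38 (SE 0.091, edgeR adjusted p 0.0037). Leaving out the libraries with cardiac transcripts keeps 1 OEV control, 2 OE Runx1 and 3 OE Runx2 libraries, and the lone control is then assumed to vary like the other groups. In that smaller fit the Itgb1 value with RUNX1 was 0.27, not called. Itgav and Itgb5, the chains of a vitronectin receptor, were called higher only in the RUNX2 comparison, at 0.46 (SE 0.14) and 0.57 (SE 0.12), and Itgav lost its call without OE Runx2 replicate 2 (0.38) or 3 (0.39). In the fit with the lone OEV control Itgav stood at 0.34, not called. With RUNX1 Itgav stood at -0.16 and Itgb5 at 0.08. Itga2b, the platelet fibrinogen receptor chain, stood at 0.69 (SE 0.17) with RUNX2, where it was called, and at 0.43 with RUNX1, where it was not.

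Of the laminin-binding integrins, Itga7 and Itga6 were lower with both factors. Itga7, the laminin receptor chain typical of muscle, had 66.5, 64.2 and 64.8 CPM in OE Runx1 and 66.0, 55.7 and 56.8 CPM in OE Runx2 cultures, against 92.4, 96.4 and 90.5 CPM in OEV controls. Each control lay above each overexpressing library, and the gene fell by 0.51 with RUNX1 (SE 0.087, edgeR adjusted p 0.00046) and by 0.65 with RUNX2 (SE 0.087, edgeR adjusted p 5.8e-05) on the log2 scale. Itga6, which binds laminin with beta-1 or beta-4, had 125, 126 and 168 CPM in OE Runx1 and 117, 148 and 163 CPM in OE Runx2 cultures, against 226, 207 and 209 CPM in OEV controls. It was lower in every overexpressing library, at -0.62 (SE 0.14, edgeR adjusted p 0.0032) with RUNX1 and -0.59 (SE 0.14, edgeR adjusted p 0.0036) with RUNX2. Itga3, another laminin receptor chain, was not called in either. Itgb4, the beta chain of hemidesmosomes, was low in every group and was called higher with RUNX2 at 1.58 (SE 0.36), while with RUNX1 its 0.92 missed the threshold.

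Leukocyte integrin chains were present at low levels and did not move as 1 group. Itgb2, the common beta chain of leukocyte integrins, had 2.02, 1.47 and 0.748 CPM in OE Runx1 and 6.05, 5.0 and 5.10 CPM in OE Runx2 cultures, against 0.329, 0.336 and 0.550 CPM in OEV controls. The groups did not overlap, at log2 fold changes of 1.78 (SE 0.39, edgeR adjusted p 0.0027) with RUNX1 and 3.71 (SE 0.41, edgeR adjusted p 1.1e-05) with RUNX2. Itgae, which pairs with beta-7 and binds E-cadherin, had 2.48, 2.99 and 2.75 CPM in OE Runx1 and 1.61, 1.94 and 1.44 CPM in OE Runx2 cultures, against 7.84, 7.35 and 6.10 CPM in OEV controls. It was lower in every overexpressing library, at -1.37 (SE 0.22, edgeR adjusted p 0.00028) with RUNX1 and -2.09 (SE 0.22, edgeR adjusted p 8.5e-06) with RUNX2. Itgal, the alpha chain of the leukocyte receptor for ICAM-1, had 4.72, 3.75 and 3.87 CPM in OE Runx1 and 1.61, 0.674 and 1.18 CPM in OE Runx2 cultures, against 1.65, 1.14 and 2.05 CPM in OEV controls. Only the OE Runx1 libraries stood clear of the controls, at 1.35 (SE 0.35, edgeR adjusted p 0.0074), and with the lone OEV control free of cardiac transcripts the value was 1.05, not called. Itgb7 was called with RUNX1 at 2.20 (SE 0.73), and this rested on single libraries: it was 3.70 without OEV control replicate 1, and the call was lost without OEV control replicate 2 (1.92), OE Runx1 replicate 1 (2.18) or OE Runx1 replicate 2 (2.05). Against the lone OEV control it was 5.24.

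Macrophage and leukocyte markers, 8 in all, summed to 11.4, 8.73 and 14.8 CPM in OE Runx1 and 17.7, 16.3 and 14.9 CPM in OE Runx2 cultures, against 5.90, 7.65 and 4.93 CPM in OEV controls. Of 3 markers tested, 2 rose with RUNX1 and 3 with RUNX2, and none of the 8 was at 0 in every OE Runx1 library. Ptprc and Tyrobp were at 0 in every OE Runx2 library, and Ptprc, Adgre1 and Tyrobp in every OEV control. T cell markers summed to 0.321 to 0.801 CPM in OE Runx1 and 1.53 to 2.25 CPM in OE Runx2 cultures, against 0.0659 to 0.268 CPM in OEV controls, with the 1 tested called higher in each. Of these 6 markers Cd3d, Cd3e and Cd8a were at 0 in every OE Runx1 library. Cd3d, Cd3e, Cd3g and Cd8a were at 0 in every OE Runx2 library, and Cd3g and Cd8a in every OEV control. Stromal progenitor markers also moved, with sums of 317 to 351 CPM in OE Runx1 and 567 to 612 CPM in OE Runx2 cultures, against 77.4 to 114 CPM in OEV controls, with 3 of 4 tested called higher in each. Smooth muscle and pericyte markers summed to 992 to 1240 CPM in OE Runx1 and 964 to 1170 CPM in OE Runx2 cultures, against 241 to 246 CPM in OEV controls, although of 6 tested 2 rose and 2 fell with RUNX1 and 2 rose and 3 fell with RUNX2. Platelet markers summed to 8.87 to 12.6 CPM in OE Runx1 and 5.12 to 7.52 CPM in OE Runx2 cultures. OEV controls had 2.80 to 2.95 CPM, and the 1 of 4 markers tested was called higher in each. Epithelial and mammary markers summed to 1.74 to 4.05 CPM in OE Runx1 and 2.59 to 3.02 CPM in OE Runx2 cultures. OEV controls had 0.336 to 0.525 CPM, and of 2 tested 2 rose with RUNX1 and 1 with RUNX2. The part of any cells bearing these markers in the integrin and laminin changes was not tested.

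**Figure D2:**
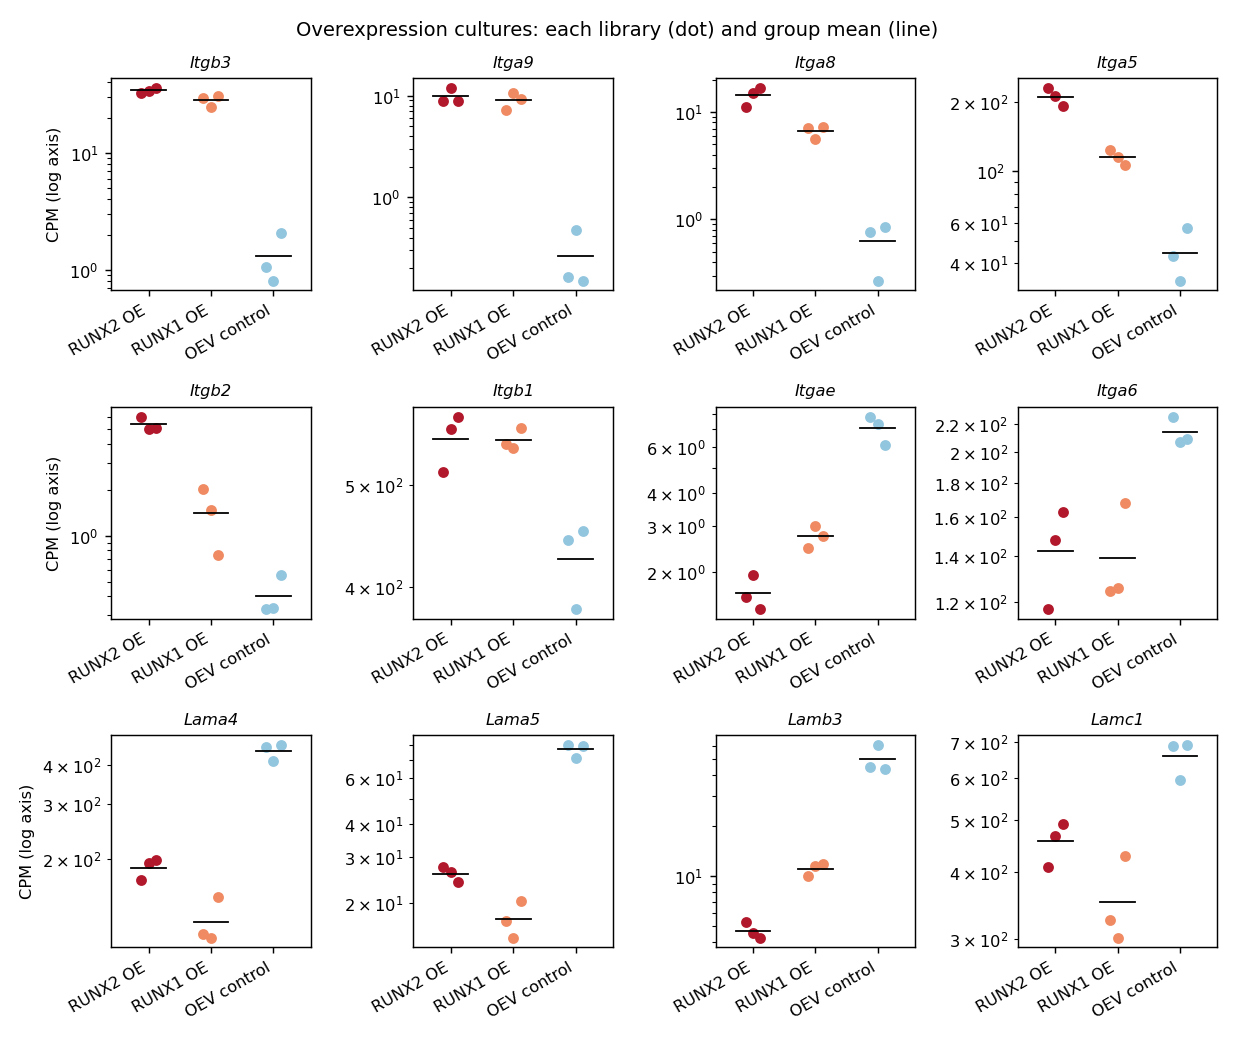
CPM on log axes (y) of 12 integrin and laminin genes in OE Runx2, OE Runx1 and OEV control cultures (x); dots are libraries and lines are group means. Itgb3, Itga9, Itga8 and Itga5 lie above the OEV controls in every overexpressing library, and Lama4, Lama5, Lamb3 and Lamc1 lie below them.

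The laminin chains that make up most of the culture's laminin RNA were lower in the overexpressing cultures. Lama4, the alpha chain typical of fat cell and vessel basement membranes, had 115, 112 and 150 CPM in OE Runx1 and 170, 193 and 198 CPM in OE Runx2 cultures, against 458, 412 and 464 CPM in OEV controls. The 3 groups did not overlap, and the log2 fold changes were -1.82 (SE 0.12, edgeR adjusted p 5e-07) with RUNX1 and -1.25 (SE 0.12, edgeR adjusted p 4.2e-06) with RUNX2. Lama5, a broadly used alpha chain, had 17.1, 14.8 and 20.4 CPM in OE Runx1 and 27.6, 26.2 and 24.0 CPM in OE Runx2 cultures, against 80.1, 71.5 and 79.4 CPM in OEV controls. It was again lowest in OE Runx1 libraries, at -2.14 (SE 0.13, edgeR adjusted p 2e-07) with RUNX1 and -1.57 (SE 0.13, edgeR adjusted p 8.2e-07) with RUNX2. Lamc1 had 325, 301 and 428 CPM in OE Runx1 and 410, 467 and 492 CPM in OE Runx2 cultures, against 690, 594 and 691 CPM in OEV controls. Both overexpressing groups lay below the controls but overlapped each other, at -0.90 (SE 0.13, edgeR adjusted p 0.00018) with RUNX1 and -0.53 (SE 0.13, edgeR adjusted p 0.0049) with RUNX2.

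Adipocyte markers summed to 6010 to 7430 CPM in OE Runx1 and 3540 to 4230 CPM in OE Runx2 cultures, against 6730 to 7050 CPM in OEV controls. Of 6 tested, 2 rose and 2 fell with RUNX1, and 5 fell with RUNX2. Their part in the laminin values was not tested.

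The beta chains Lamb1 and Lamb2 had smaller changes. Lamb1 had 319, 291 and 333 CPM in OE Runx1 and 388, 422 and 410 CPM in OE Runx2 cultures, against 483, 444 and 453 CPM in OEV controls. Its fall was called with RUNX1 at -0.55 (SE 0.084, edgeR adjusted p 0.00023) and not with RUNX2 at -0.18 (edgeR adjusted p 0.087). Lamb2 had 160, 147 and 142 CPM in OE Runx1 and 227, 202 and 194 CPM in OE Runx2 cultures, against 255, 267 and 274 CPM in OEV controls. It was called lower in both, at -0.82 (SE 0.088, edgeR adjusted p 1.6e-05) with RUNX1 and -0.36 (SE 0.088, edgeR adjusted p 0.0043) with RUNX2.

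Lamb3 and Lama3, chains found in epithelial laminins, moved in opposite directions. Lamb3 had 9.96, 11.4 and 11.7 CPM in OE Runx1 and 5.31, 4.53 and 4.27 CPM in OE Runx2 cultures, against 45.0, 60.9 and 43.8 CPM in OEV controls. The 3 groups were wholly separate, at -2.18 (SE 0.15, edgeR adjusted p 5.9e-07) with RUNX1 and -3.41 (SE 0.16, edgeR adjusted p 1.4e-08) with RUNX2. Lama3 went up instead, from nearly no signal: it had 0.642, 1.65 and 0.748 CPM in OE Runx1 and 1.74, 2.75 and 2.66 CPM in OE Runx2 cultures, against 0, 0 and 0.050 CPM in OEV controls. The controls held 2 counts in all, so the ratio of scaled counts was 50.3 (95% counting interval 13.6 to 420) with 121 counts in OE Runx1 and 121 (33.3 to 1010) with 306 counts in OE Runx2 cultures. Both were called by edgeR (adjusted p 0.00018 and 2.5e-05). The counting intervals leave out the spread between libraries and may be too narrow, since most small counts were even. The 2 control counts lay in OEV control replicate 3, and without it the fitted log2 fold changes of 5.49 and 6.72 became 8.27 and 9.53. Lamc3, a gamma chain of restricted distribution, had 3.76, 3.34 and 3.18 CPM in OE Runx1 and 0.327, 0.394 and 0.259 CPM in OE Runx2 cultures, against 0.329, 0.134 and 0.400 CPM in OEV controls. It rose with RUNX1 alone, at 3.54 (SE 0.45, edgeR adjusted p 5.5e-05), and stood at 0.15 with RUNX2.

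The mix of integrin alpha chains changed, and the laminin totals fell. Per kilobase, the integrin alpha genes together averaged 64.7 ± 1.85 CPM per kb in OE Runx1 and 88.6 ± 1.56 in OE Runx2 cultures, against 61.8 ± 3.65 in OEV controls (SD, n = 3 each). Itga5 made up 36.1% of that sum in OE Runx1 (32.4 to 38.7%) and 48.3% in OE Runx2 cultures (44.4 to 52.8%), against 14.5% in OEV controls (11.8 to 17.9%). Itga6 made up 23.8% in OE Runx1 and 17.8% in OE Runx2 cultures, against 38.4% in OEV controls. The leading alpha chain was thus a fibronectin receptor chain in overexpressing cultures and a laminin receptor chain in the controls. Among beta chains Itgb1 made up 77.5% in OE Runx1 and 71.2% in OE Runx2 cultures, against 76.5% in OEV controls. The laminin alpha sum was 12.1 ± 2.11 CPM per kb in OE Runx1 and 18.1 ± 1.13 in OE Runx2 cultures, against 43.7 ± 2.73 in OEV controls, while Lama4's share of it was 86.0% in OE Runx1 and 85.7% in OE Runx2 cultures, against 84.4% in OEV controls. The laminin beta sum was 58.0 ± 2.47 in OE Runx1 and 75.8 ± 1.77 in OE Runx2 cultures, against 97.6 ± 0.299 CPM per kb in OEV controls, and the laminin gamma sum was 43.7 ± 8.07 in OE Runx1 and 55.8 ± 5.13 in OE Runx2 cultures, against 81.1 ± 6.79 CPM per kb in OEV controls.

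**Figure D3:**
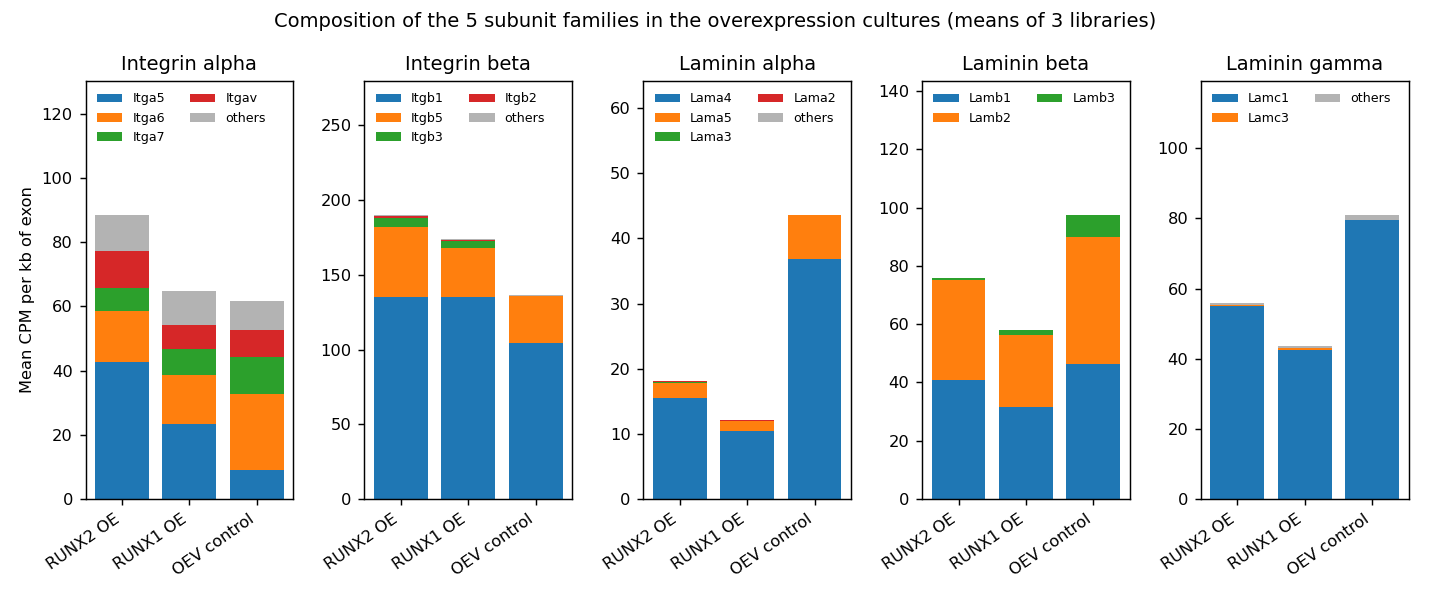
Mean CPM per kb of exon (y) of the 5 subunit families in OE Runx2, OE Runx1 and OEV control cultures (x), stacked by gene; each bar is the mean of 3 libraries and carries no error bar. Itga5 is the largest integrin alpha segment in OE Runx2 cultures (48.3%) and Itga6 in OEV controls (38.4%), and the laminin alpha bar is lower in both overexpressing groups.

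The factors were also set against each other directly, OE Runx2 against OE Runx1. Of 31 members tested 15 were called, 11 higher and 4 lower with RUNX2, where 39.9% of all tested genes were called, 18.9% higher and 21.0% lower. The members' median was 0.26, against -0.02 over all tested genes. Each of the main laminin chains was higher with RUNX2, from the values above: Lama4 by 0.58 (SE 0.12), Lama5 by 0.57 (SE 0.12), Lamb2 by 0.47 (SE 0.088), Lamb1 by 0.37 (SE 0.084) and Lamc1 by 0.38 (SE 0.13) on the log2 scale, at edgeR adjusted p between 0.0017 and 0.043. Lamc1 overlapped between the groups and lost its call without OE Runx1 replicate 1 (0.35) or 2 (0.28) or without OE Runx2 replicate 2 (0.36) or 3 (0.32). Lamb3 (-1.23, SE 0.15, edgeR adjusted p 0.00012) and Lamc3 (-3.39, SE 0.44, edgeR adjusted p 0.00016) were lower with RUNX2. Of the matrix receptors, Itga5 was higher with RUNX2 by 0.87 (SE 0.16, edgeR adjusted p 0.0013), and Itgav by 0.62, Itgb5 by 0.49 and Itga8 by 1.10 were called as well. Itga8 lost its call without OE Runx2 replicate 3 (0.97). Itgb2 was higher with RUNX2 (1.93, SE 0.37, edgeR adjusted p 0.0019), and Itgal was lower (-1.83, SE 0.36, edgeR adjusted p 0.0022). Itgae stood at -0.72 and lost its call without OE Runx1 replicate 2 (-0.66) or OE Runx2 replicates 1 (-0.70) or 3 (-0.63). Itgb8, which activates latent TGF-beta with alpha-v, was called at 2.79 from at most 0.681 CPM, and the call was lost on leaving out any 1 of 5 libraries: OE Runx1 replicates 1 (2.22) and 2 (2.62), and OE Runx2 replicates 1 (2.49), 2 (2.92) and 3 (2.91). Without OE Runx1 replicate 3 it was 4.17. Itgb1 and Itgb3 were not called.

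Partners of these receptors were counted in 3 lists, which were drawn up with earlier results of these data known. Of all tested genes, 28.2% rose and 25.8% fell with RUNX1 (median 0.06). With RUNX2, 31.3% of all tested genes rose and 29.6% fell (median 0.03). In the cell, 14 of 25 tested integrin adhesion genes rose and 7 fell with RUNX1 (median 0.48), and 16 rose and 2 fell with RUNX2 (median 0.57). Actn1, an actin crosslinker of adhesions, averaged 282.5 ± 2.87 CPM in OE Runx1 and 375 ± 23.1 CPM in OE Runx2 cultures, against 62.3 ± 7.61 CPM in OEV controls (SD, n = 3 each). Zyx, a sensor of tension at adhesions, averaged 125 ± 15.3 CPM in OE Runx1 and 243 ± 29.6 CPM in OE Runx2 cultures, against 40.5 ± 4.10 CPM in OEV controls. Parvg, a parvin of blood cells, averaged 2.04 ± 0.638 CPM in OE Runx1 and 0.702 ± 0.553 CPM in OE Runx2 cultures, against 18.4 ± 3.87 CPM in OEV controls. Without OE Runx2 replicate 1 its log2 fold change with RUNX2 was -5.46 in place of -4.72.

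Of laminin's basement membrane partners, 11 of 20 rose and 5 fell with RUNX1 (median 0.86), and 12 rose and 3 fell with RUNX2 (median 0.82). For this list and the next the background was again 54.0% of all tested genes called with RUNX1 and 60.9% with RUNX2. Col18a1, a basement membrane collagen, averaged 235 ± 38.4 CPM in OE Runx1 cultures, against 40.9 ± 3.97 CPM in OEV controls, and Fbln1, a fibulin, averaged 37.5 ± 1.75 CPM, against 4.78 ± 1.24 CPM. Dag1, the laminin receptor dystroglycan, which is no integrin, was lower: it averaged 372 ± 56.6 CPM in OE Runx1 and 338 ± 27.0 CPM in OE Runx2 cultures, against 1006 ± 18.1 CPM in OEV controls (edgeR adjusted p 1.4e-06 and 3.6e-07). Among integrin ligands outside the basement membrane, 9 of 20 rose and 1 fell with RUNX1 (median 1.38), and 15 rose and 1 fell with RUNX2 (median 3.00). Tnc, tenascin-C, averaged 908 ± 71.3 CPM in OE Runx1 and 634 ± 51.9 CPM in OE Runx2 cultures, against 12.1 ± 5.82 CPM in OEV controls (log2 fold changes 6.22 and 5.70, edgeR adjusted p 1.7e-07 and 1.1e-07). Spp1, osteopontin, averaged 190 ± 32.5 CPM in OE Runx1 cultures, against 5.52 ± 2.92 CPM in OEV controls. Both are ligands of integrin chains that rose in these cultures, Itga9 and Itgb3. Mfge8, a ligand of alpha-v integrins, was the 1 ligand that fell, at -1.17 with RUNX1 and -1.53 with RUNX2. With OE Runx2 set against OE Runx1, 9 of 25 adhesion genes were higher and 4 lower (median 0.15). In that comparison 9 of 20 basement membrane partners were higher and 2 lower (median 0.26), and 9 of 20 ligands were higher and 3 lower (median 0.66). Of all tested genes 18.9% were higher and 21.0% lower there (median -0.02).

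Promoter sequences were searched for the core letters that RUNX proteins recognise, TGTGGT or TGCGGT on either strand, in the 250 bases before each start. RefSeq windows of build GRCm38.p6 covered 23 of the 37 genes, and 3 of these (13%) held a match, against 20.9% of 27025 genes with a window. The count tables were made on mm39, so these positions belong to the sequences and not to the counts. The matching windows are shown because they are the integrin promoters that carry these letters next to the start; capitals mark the match. Itga8 lies at chr2:12301945-12302194 (minus strand), with the match 111 bases before the start, Itga4 at chr2:79255176-79255425 (plus strand) with the match at 60 bases, and Itga3 at chr11:95069199-95069448 (minus strand) with the match at 73 bases; another Itga3 window held none.
Itga8: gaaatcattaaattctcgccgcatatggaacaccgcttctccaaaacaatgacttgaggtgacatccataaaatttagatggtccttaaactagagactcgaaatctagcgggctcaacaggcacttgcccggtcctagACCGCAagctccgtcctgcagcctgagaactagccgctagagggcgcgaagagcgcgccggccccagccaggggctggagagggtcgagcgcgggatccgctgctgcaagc
Itga4: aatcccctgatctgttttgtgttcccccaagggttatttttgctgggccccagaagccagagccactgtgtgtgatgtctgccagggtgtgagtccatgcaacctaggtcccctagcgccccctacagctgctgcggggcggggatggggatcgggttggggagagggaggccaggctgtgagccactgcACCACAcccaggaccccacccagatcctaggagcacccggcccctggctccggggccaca
Itga3: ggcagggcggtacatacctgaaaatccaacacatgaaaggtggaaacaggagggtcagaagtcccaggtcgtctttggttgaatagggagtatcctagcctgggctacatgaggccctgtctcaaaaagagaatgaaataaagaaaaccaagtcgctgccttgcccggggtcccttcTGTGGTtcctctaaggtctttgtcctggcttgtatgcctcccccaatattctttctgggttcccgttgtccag
Of the 3, Itga8 rose with both factors, Itga4 was not tested in the overexpression cultures, and Itga3 was not called there. Itga2b, Itga5, Itga9, Itgav, Itgb1, Itgb5, Itgb7, Itgb8, Lama5, Lamb1, Lamb2 and Lamb3, which have windows and were called in at least 1 overexpression comparison, held no match in theirs. A match in these letters is a description of the window, and its absence says nothing about binding elsewhere.

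In BAT cultures labelled as knockouts few of these genes were called. The knockout of Runx1 and the knockout of Runx2 gave no called member among 28 tested, and the double knockout gave 2, both leukocyte integrin alpha chains. The background was low for the single knockouts, with 0.435% of all tested genes called for Runx1 (0.406% higher and 0.0295% lower) and 0.184% for Runx2 (0.177% higher and 0.00738% lower). For the double knockout it was 15.3% (8.27% higher and 7.01% lower). At an unadjusted p under 0.05, edgeR counted 2 of 28 members in each single knockout (7.14%), against 942 of 13551 tested genes (6.95%) for Runx1 and 872 (6.43%) for Runx2. DESeq2 called 0 members and 184 genes (0.944% of those tested) for Runx1, and 2 members and 156 genes (0.8%) for Runx2. The 3 comparisons share the control libraries. The member median was 0.06 in the Runx1 knockout, against -0.01 over all tested genes, 0.05 in the Runx2 knockout, against -0.01, and 0.18 in the double knockout, against 0.02.

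Itgad, an alpha chain of leukocyte beta-2 integrins, had 3.38, 4.09 and 4.63 CPM in double knockout, 1.45, 1.68 and 1.77 CPM in Runx2 knockout and 0.939, 1.29 and 0.631 CPM in Runx1 knockout cultures, against 0.610, 0.271 and 0.693 CPM in controls. The double knockout libraries lay above all others, and only the Runx1 knockout overlapped the controls. Its log2 fold change was 2.94 in the double knockout (SE 0.35, edgeR adjusted p 3e-04), 1.64 in the Runx2 knockout (SE 0.36, edgeR adjusted p 0.11) and 0.86 in the Runx1 knockout (SE 0.37, edgeR adjusted p 0.64). Itgal had 1.05, 1.37 and 1.31 CPM in double knockout, 1.48, 0.824 and 1.32 CPM in Runx2 knockout and 0.666, 0.740 and 0.902 CPM in Runx1 knockout cultures, against 0.251, 0.421 and 0.241 CPM in controls. All knockout libraries lay above all controls, and the log2 fold changes were 2.01 (SE 0.37, edgeR adjusted p 0.0039), 1.97 (SE 0.37, edgeR adjusted p 0.068) and 1.32 (SE 0.38, edgeR adjusted p 0.28) in the same order. These levels are low, and Itgb2, the beta chain both need, was not called in any of the 3. Leukocyte markers summed to 5.07 to 6.33 CPM in double knockout, 5.53 to 5.73 CPM in Runx2 knockout and 5.44 to 7.15 CPM in Runx1 knockout cultures, against 4.45 to 5.54 CPM in controls, and of the defining markers Ptprc, Adgre1, Tyrobp and Fcgr1 were at 0 in every control library, and Tyrobp and Fcgr1 in every double knockout library. T cell markers summed to 0.698, 0.754 and 0.223 CPM in double knockout cultures, against 0.180, 0.0301 and 0.0903 CPM in controls, and the 1 marker tested was called higher (3.07, edgeR adjusted p 0.029). Of these 6 markers Cd3g, Cd4 and Cd8a were at 0 in every double knockout library, and Cd3d and Cd8a in every control library. The part of any cells bearing these markers in the result was not tested.

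The main chains were not called. Itgb1 had 299, 369 and 362 CPM in double knockout, 352, 360 and 365 CPM in Runx2 knockout and 324, 346 and 338 CPM in Runx1 knockout cultures, against 406, 315 and 317 CPM in controls, and all groups overlapped the controls. Its log2 fold changes were -0.01, 0.05 and -0.04 (SE 0.13 each). Lamc1 had 79.4, 385 and 430 CPM in double knockout, 406, 358 and 482 CPM in Runx2 knockout and 440, 420 and 392 CPM in Runx1 knockout cultures, against 381, 431 and 399 CPM in controls. A single library, double knockout replicate 1, lay far below all others. It stood apart for other laminins too: Lama4 was at 130 CPM there, against 296 and 333 CPM in the other double knockout libraries, and Lama5 at 32.0 CPM, against 86.0 and 83.1 CPM. Adipocyte markers summed to 15000 CPM in that library, against 7410 and 6910 CPM in the other double knockout cultures and 6170 to 6310 CPM in controls; their part in the result was not tested.

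Without double knockout replicate 1 the double knockout comparison called 10 of 28 members (35.7%), where 3584 of 13771 tested genes (26.0%) were called. Higher were Itgad (3.06), Itga8 (2.75), Itgal (2.13), Itgb3 (1.47), Itga5 (0.66), Itga3 (0.56), Itga1 (0.55), Lamb3 (0.42) and Lama4 (0.27), and lower was Itgb5 (-0.26). With all 3 libraries, Itgb3 averaged 3.69 ± 0.747 CPM in double knockout cultures, against 1.52 ± 1.15 CPM in controls (SD, n = 3 each), and its 1.30 (SE 0.42, edgeR adjusted p 0.056) missed the threshold. Of the partner lists, the ligands outside the basement membrane held 2 called genes in the Runx1 knockout, 1 in the Runx2 knockout and 4 in the double knockout, all higher of 16 tested. No adhesion gene of 26 and no basement membrane partner of 18 was called in either single knockout, and the double knockout had 1 adhesion gene lower and 2 basement membrane partners higher. Of all tested genes 0.435% were called in the Runx1 knockout, 0.184% in the Runx2 knockout and 15.3% in the double knockout. Postn, periostin, a ligand of alpha-v integrins, averaged 164 CPM in double knockout, 65.4 CPM in Runx2 knockout and 66.3 CPM in Runx1 knockout cultures, against 24.6 CPM in controls. Its log2 fold changes were 2.74, 1.41 and 1.43. The Runx1 knockout call was lost without control replicate 2 (1.30), and the Runx2 knockout call was lost on leaving out any 1 of its 6 libraries (1.28 to 1.58).

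**Figure D4:**
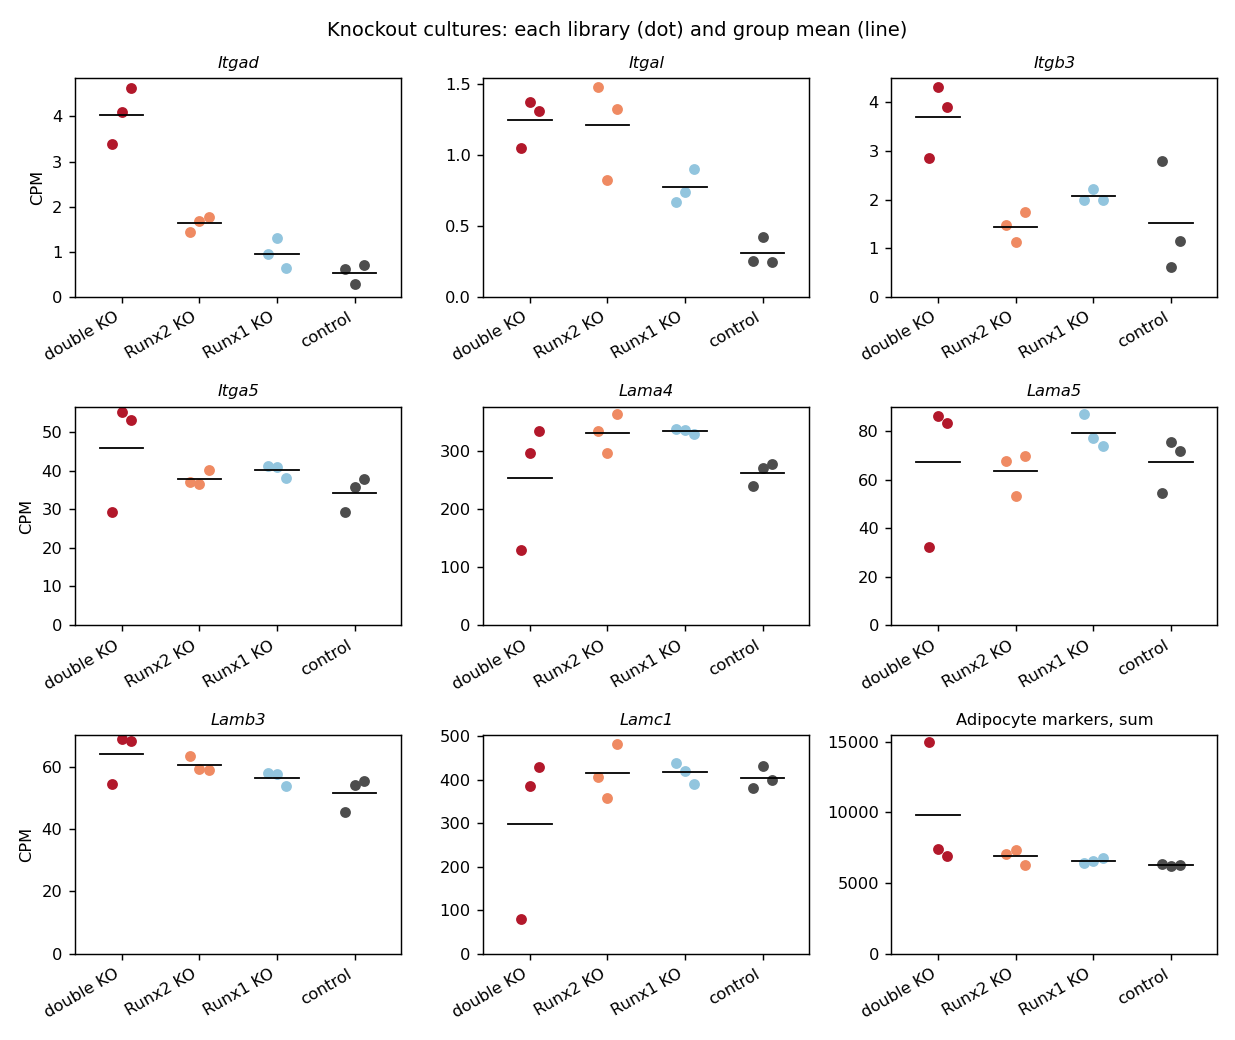
CPM (y, from 0) of 8 genes and the summed adipocyte markers in double knockout, Runx2 knockout, Runx1 knockout and control BAT cultures (x); dots are libraries and lines are means. Itgad is highest in the double knockout libraries (3.38 to 4.63 CPM), and 1 double knockout library is low for Lama4, Lama5 and Lamc1 and high for adipocyte markers.

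In IWAT of Adipoq-cre:Runx1 KO animals, 2 integrin alpha genes were lower than in Runx1 flox animals and no member was higher. These were 2 of 35 members tested, where 7.48% of all tested genes were called, 4.45% higher and 3.03% lower. The members leaned low, with a median of -0.30 against 0.00 over all tested genes and 28 of 35 below 0. All 10 tested laminin genes had negative values (median -0.42), but none was called by edgeR. At an unadjusted edgeR p under 0.05 there were 4 of them and 9 of all 35 members (25.7%), where 3994 of 15896 tested genes (25.1%) passed. DESeq2 called 2 of these laminin genes, among 2265 genes called (11.2% of those it tested).

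Itga4, the chain of the VCAM-1 and fibronectin receptor of leukocytes, had 59.9, 57.8 and 63.9 CPM in Runx1 KO IWAT, against 110, 85.6 and 104 CPM in Runx1 flox IWAT. The groups did not overlap, at -0.73 (SE 0.13, edgeR adjusted p 0.013), and the call was lost without Runx1 KO replicate 2 (-0.69). Itga6 had 74.9, 57.0 and 60.1 CPM in Runx1 KO IWAT, against 85.3, 95.5 and 95.1 CPM in Runx1 flox IWAT. These were separate as well, at -0.52 (SE 0.13, edgeR adjusted p 0.042), and the call was lost without flox replicate 1 (-0.58), 2 (-0.50) or 3 (-0.50) or KO replicate 2 (-0.45) or 3 (-0.48). Itgb1 had 342, 282 and 295 CPM in Runx1 KO IWAT, against 341, 409 and 388 CPM in Runx1 flox IWAT, and overlapped (-0.31, SE 0.15, edgeR adjusted p 0.22). Lamc1 had 178, 148 and 173 CPM in Runx1 KO IWAT, against 257, 234 and 192 CPM in Runx1 flox IWAT, without overlap but not called (-0.45, SE 0.15, edgeR adjusted p 0.091).

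Other cell types varied between these libraries. Skeletal muscle markers summed to 209, 14200 and 6620 CPM in Runx1 KO IWAT, against 14.5, 6320 and 70.5 CPM in Runx1 flox IWAT. Endothelial markers summed to 853, 585 and 663 CPM in Runx1 KO IWAT, against 939, 1400 and 1130 CPM in Runx1 flox IWAT, with 2 of 6 called lower. Leukocyte markers summed to 1670, 1570 and 1550 CPM in Runx1 KO IWAT, against 2300, 1430 and 2080 CPM in Runx1 flox IWAT, with none called. Brown adipocyte markers summed to 289, 188 and 241 CPM in Runx1 KO IWAT, against 39.7, 76.4 and 39.1 CPM in Runx1 flox IWAT. Of these 4 markers 2 were called higher. Leaving out the libraries rich in skeletal muscle transcripts keeps 1 Runx1 KO and 2 Runx1 flox libraries, with the lone KO library assumed to vary like the flox libraries. Itga4 then stood at -0.84 and Itga6 at -0.27, neither called. The part of these cell types in the 2 calls was not tested. In the partner lists 1 adhesion gene of 25 was higher and 1 lower, 2 of 20 basement membrane partners were lower and 3 of 20 ligands were lower. Of all tested genes 4.45% were higher and 3.03% lower. Thbs1, a thrombospondin and integrin ligand, had the lowest adjusted p among ligands that fell, with 24.9 CPM in Runx1 KO IWAT, against 98.1 CPM in Runx1 flox IWAT.

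In IWAT of Adipoq-cre:Runx2 KO animals, no member was called against Runx2 flox animals. No gene at all was called by edgeR (0% of tested genes). At an unadjusted p under 0.05 edgeR counted 3206 of 15574 genes (20.6%) and 11 of 35 members (31.4%). DESeq2 called 946 genes (4.73% of those it tested), 1 of them a member, Itgb7 (2.7% of members). Itgb7, the beta chain of lymphocyte homing receptors, had the lowest p of the members, with 73.3, 78.8 and 53.4 CPM in Runx2 KO IWAT, against 243, 209 and 80.3 CPM in Runx2 flox IWAT. The third flox library was near the KO libraries and the other 2 far above (-1.37, SE 0.40, edgeR adjusted p 0.22). Itgal followed the same split, with 47.4, 64.8 and 34.5 CPM in Runx2 KO IWAT, against 156, 144 and 48.5 CPM in Runx2 flox IWAT. Lama4 showed it in reverse, with 216, 178 and 169 CPM in Runx2 KO IWAT, against 55.7, 84.1 and 173 CPM in Runx2 flox IWAT.

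The flox libraries differed in cell content. B cell markers summed to 466, 581 and 247 CPM in Runx2 KO IWAT, against 1750, 1860 and 285 CPM in Runx2 flox IWAT, and adipocyte markers to 32400, 29800 and 38000 CPM, against 11500, 14100 and 30000 CPM. Brown adipocyte markers summed to 149, 813 and 718 CPM in Runx2 KO IWAT, against 31.2, 22.1 and 71.3 CPM in Runx2 flox IWAT. None of these 4 markers was called. Skeletal muscle markers reached 6420 CPM in the third flox library, against at most 427 CPM in the others. Without that library 21 of 35 members (60.0%) were called, 10 higher and 11 lower in Runx2 KO IWAT, where 6354 of 15875 tested genes (40%) were called. Among them Itga7 stood at 1.94, Lama4 at 1.43 and Itgb1 at 0.48, and Itgb7 at -1.72, Itgal at -1.61 and Itgb2 at -1.42. Without the libraries rich in B cell transcripts, which leaves 1 flox library, Itgb7 stood at -0.23 and Lama4 at 0.12. The part of the marker-bearing cells in these values was not tested. Itgb1 had 417, 396 and 416 CPM in Runx2 KO IWAT, against 270, 318 and 386 CPM in Runx2 flox IWAT (0.34, SE 0.21, edgeR adjusted p 0.35), and Lamc1 had 251, 200 and 195 CPM, against 117, 169 and 222 CPM (0.35, SE 0.26, edgeR adjusted p 0.44). None of the partner lists held a called gene.

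In the HFD set, 3 lymphocyte integrin chains were lower in Runx1 knockout IWAT than in WT IWAT and no member was higher. These were 3 of 34 tested, where 2.11% of all tested genes were called, 0.0465% higher and 2.07% lower. Itgal had 7.76, 4.28 and 6.67 CPM in HFD Runx1 knockout IWAT, against 16.7, 68.8 and 48.0 CPM in HFD WT IWAT. Each knockout library lay below each WT library, at -2.83 (SE 0.45, edgeR adjusted p 0.0071). Itgb7 had 7.85, 12.2 and 8.65 CPM in HFD Runx1 knockout IWAT, against 21.4, 61.2 and 42.6 CPM in HFD WT IWAT, without overlap (-2.12, SE 0.36, edgeR adjusted p 0.0088). Itgae, the partner of Itgb7 on tissue T cells, had 0.932, 1.91 and 1.59 CPM in HFD Runx1 knockout IWAT, against 5.01, 13.2 and 6.01 CPM in HFD WT IWAT, again apart (-2.46, SE 0.45, edgeR adjusted p 0.012). All 3 lost their call without knockout replicate 1, at -3.02, -2.0 and -2.20 in the same order, and Itgae also without WT replicate 2 (-1.92). In the authors' deposited table the log2 fold changes were -2.82 for Itgal, -2.12 for Itgb7 and -2.45 for Itgae, with adjusted p of 8.1e-10, 2.1e-07 and 2.4e-06.

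Lymphocyte markers were lower as well. B cell markers summed to 4.68, 8.12 and 4.75 CPM in HFD Runx1 knockout IWAT, against 182, 426 and 336 CPM in HFD WT IWAT, and 6 of 6 were called lower. T cell markers summed to 16.5, 5.17 and 21.4 CPM in HFD Runx1 knockout IWAT, against 94.2, 256 and 146 CPM in HFD WT IWAT, with 6 of 6 lower. Their part in the result was not tested. Of the integrin chains of myeloid cells, Itgb2 had 76.7, 180 and 33.7 CPM in HFD Runx1 knockout IWAT, against 71.6, 73.4 and 112 CPM in HFD WT IWAT (0.18, not called), and Itgam and Itgax were not called. Macrophage and leukocyte markers summed to 786, 1440 and 586 CPM, against 1210, 913 and 1120 CPM in HFD WT IWAT. Itgb1 had 996, 735 and 510 CPM in HFD Runx1 knockout IWAT, against 834, 564 and 739 CPM in HFD WT IWAT (0.07, SE 0.28), and Lamc1 had 406, 397 and 217 CPM, against 235, 338 and 408 CPM (0.06, SE 0.29). The values of both overlapped. Of the partner lists, 1 gene was called, the adhesion gene Parvg, with 2.41 CPM in HFD Runx1 knockout IWAT, against 18.2 CPM in HFD WT IWAT (-2.91). Of all tested genes 2.11% were called.

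**Figure D5:**
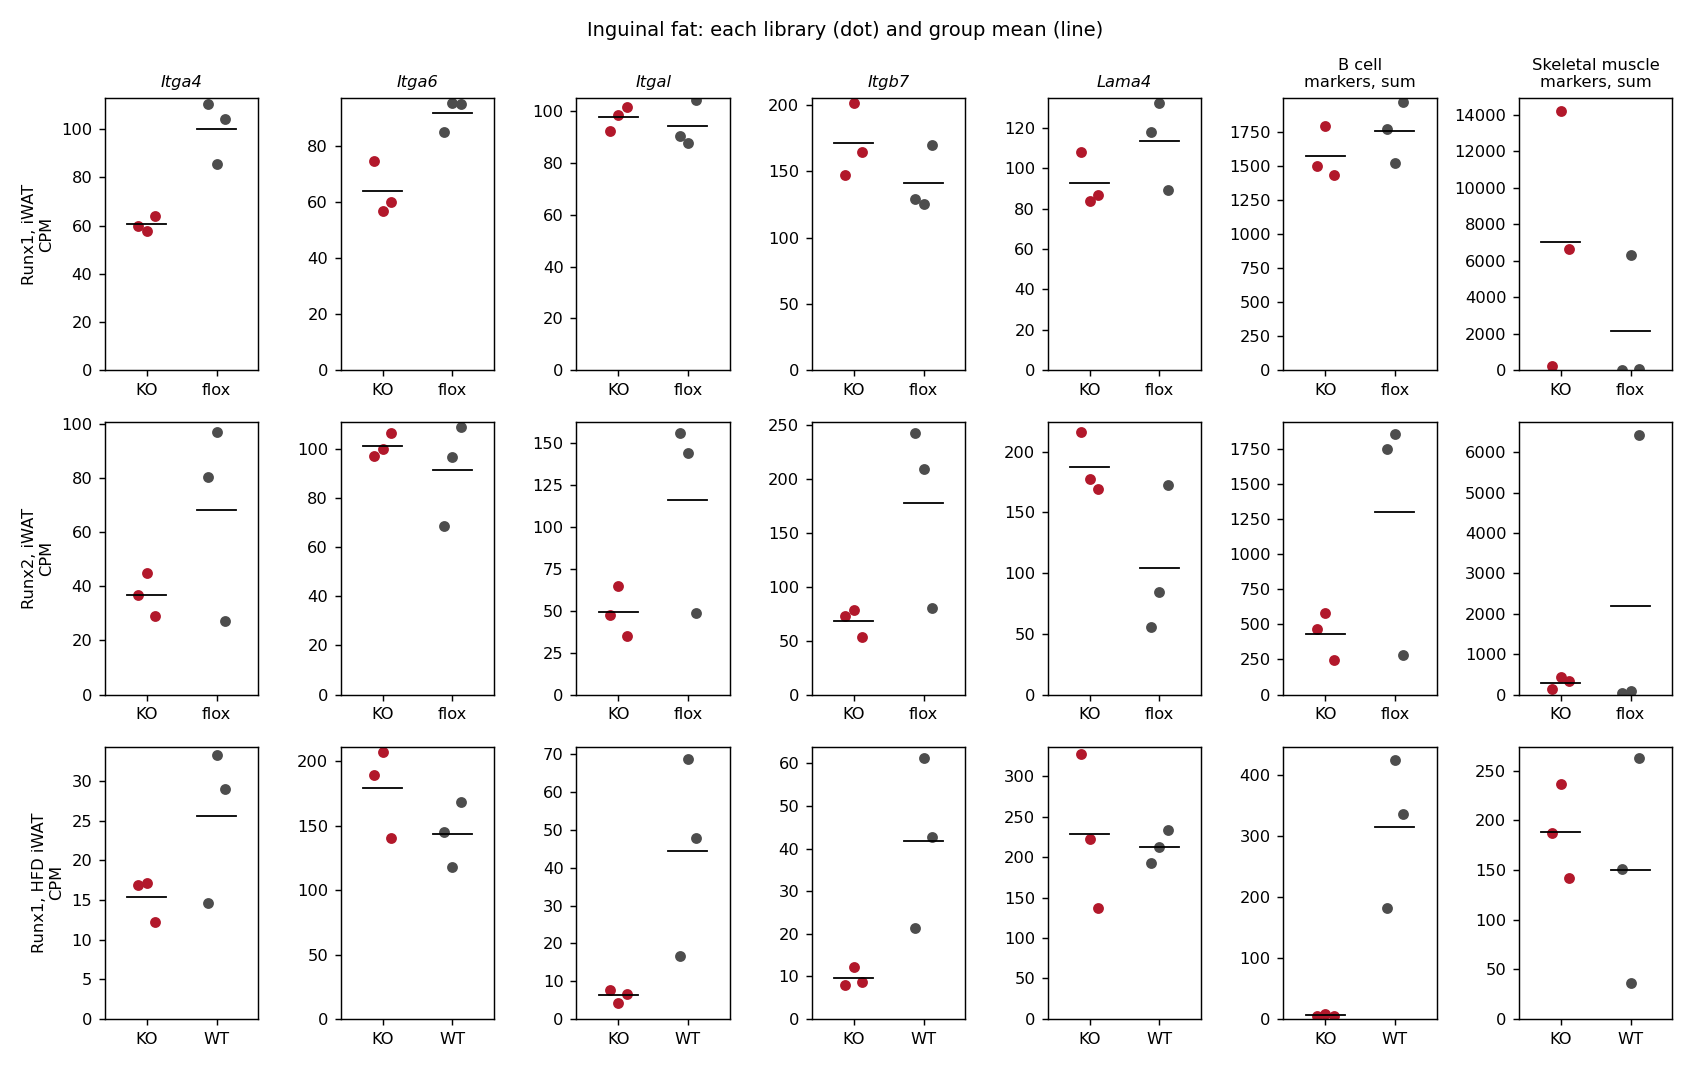
CPM (y, from 0) of 5 integrin and laminin genes and of summed B cell and skeletal muscle markers (columns) in the 3 IWAT comparisons (rows), with knockout libraries left of flox or WT libraries; dots are libraries and lines are means. Itga4 and Itga6 separate the groups in the Runx1 flox set, Itgal and Itgb7 in the HFD set, and in the Runx2 set the third flox library lies with the knockouts for Itgb7, Itgal and B cell markers.

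Deleting the IDR from Runx2 changed 1 of 24 tested members, where 3.91% of all tested genes were called, 1.51% higher and 2.40% lower. Lama5 had 64.9 and 73.7 CPM in delete Runx2 IDR cultures, against 49.3 and 47.5 CPM in full length Runx2 cultures. The groups were separate, at 0.52 (SE 0.092, edgeR adjusted p 0.00024), and the authors' deposited table gives 0.52 with an adjusted p of 0.00013. Its share of the laminin alpha sum per kilobase was 19.5% (19.2 to 19.7%) in delete Runx2 IDR cultures, against 13.6% (13.4 to 13.8%) in full length Runx2 cultures. Runx2 itself was at 129 ± 20.2 CPM in delete Runx2 IDR cultures, against 294 ± 0.888 CPM in full length Runx2 cultures (SD, n = 2 each). A count over the whole gene does not show whether the level of the shortened construct differed. Level and sequence cannot be told apart here. Runx1 was called lower as well, with a mean of 3.844 CPM in delete Runx2 IDR cultures, against 8.205 CPM (edgeR adjusted p 0.00033). Itgb1 had 362 and 378 CPM in delete Runx2 IDR cultures, against 372 and 371 CPM in full length Runx2 cultures (0.00, SE 0.072), and Lamc1 had 480 and 564 CPM, against 584 and 530 CPM (-0.09, SE 0.078). Both overlapped. The partner lists held only genes that fell among those called, 4 of 25 adhesion genes, 2 of 16 basement membrane genes and 5 of 17 ligands. Tnc, which had risen with both factors in the overexpression set, averaged 4.86 CPM in delete Runx2 IDR cultures, against 24.5 CPM in full length Runx2 cultures (-2.33).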

How the data were processed

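RNA was measured in 43 libraries. The deposited count tables hold whole-number counts per gene symbol; fastp, STAR, featureCounts and the build mm39 are named in the submitters' processing notes, and how reads shared by related genes were counted is not given in the sources used here. Between 71.1 and 81.9% of the values from 1 to 19 in a library were even, so an interval on counts covers counting error only and may be too narrow. The authors' deposited lists of changed genes give log2 fold changes and adjusted p-values for the HFD and IDR comparisons, and 10 further per-sample columns in them were not used.

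Each table was fitted once with all its groups (edgeR 4.0.16, R 4.3.3, limma 3.58.1): filterByExpr, TMM, robust quasi-likelihood test, Benjamini-Hochberg adjustment over all genes tested, calls at an adjusted p under 0.05. DESeq2 1.42.0 was an alternative. Levels per kb used merged exon lengths of GENCODE M21 (GRCm38), and promoters came from RefSeq GRCm38.p6. Figures used matplotlib 3.10.9. Replicates were compared: no pair differed by less than sampling noise (lowest chi-square per gene 6.68). Every called member was named, except 1 that is counted but not reported here, with Itgb1 and Lamc1 always, the member of lowest p where none was called, per-library values for up to 12 members in overexpression comparisons, and up to 3 called genes a direction in each partner list. The genes, lists and rules were chosen with earlier results of these data known. The scripts were tested on simulated data. Alternatives were other scaling, DESeq2, no count filter, a replicate block, the compared groups alone, and leaving out libraries; those without skeletal muscle or B cell rich libraries were chosen after seeing the data.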

Additional observations from a re-analysis of the deposited data

How the results depend on the processing

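Counts of called members were recomputed under each alternative, with the share of all tested genes called there in brackets. In Runx1 knockout cultures fitting the compared groups alone called 1 member, Lama4 (1.5%), and in Runx2 knockout cultures DESeq2 called 2 (0.8%). In double knockout cultures DESeq2 called 4 (14.4%) and the compared groups alone 1 (2.88%). In Runx1 knockout IWAT DESeq2 called 5 (11.2%) and the replicate block 1 (4.68%). In Runx2 knockout IWAT DESeq2 called 1 (4.73%). For the IDR deletion no count filter called 2 (3.95%) and the replicate block 2 (5.39%). The cause was not tested. Leaving out 1 library at a time gave 19 to 22 called members with RUNX1 (44.7 to 57%). It gave 19 to 21 with RUNX2 (52.1 to 56.8%) and 11 to 16 for RUNX2 against RUNX1 (26 to 45.6%). Runx1 knockout cultures had 0 (0.0289 to 0.202%), Runx2 knockout cultures 0 (0 to 0.065%) and double knockout cultures 2 to 10 (7.59 to 26%). Runx1 knockout IWAT had 0 to 3 (0.61 to 8.54%), Runx2 knockout IWAT 0 to 21 (0 to 40%) and the HFD set 0 to 3 (0.78 to 2.56%). For the IDR deletion each such fit left 1 library in a group, and Lama5 stood at 0.42 to 0.61 over all alternatives.

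Same-numbered replicates correlated between -0.26 and 0.41, and in no comparison was every pair above 0.1. All pairs were positive in the double knockout (0.19, 0.15 and 0.04), in Runx2 knockout IWAT (0.03, 0.2 and 0.41) and in the IDR set (0.01 each). The other comparisons held pairs at or below 0. So few correlations cannot show whether the numbers paired the samples. The replicate block gave 21, 20 and 15 called members in the overexpression comparisons, where 53.3, 60.8 and 39% of all tested genes were called. It gave 0, 0 and 2 in the knockout cultures (0.236, 0.0886 and 13.1% of all tested genes). In Runx2 knockout and HFD IWAT it gave 0 and 3 (0 and 1.37% of all tested genes).

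For single named genes 1658 alternative values stayed on the same side of the threshold, 95 kept direction and lost the call and 6 gained one. No called value changed sign, while 18 uncalled values did. Another scaling moved the median of all genes by at most 0.015. Genes under the count filter are limited by depth.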

Other observations

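Full length Runx2 cultures and OE Runx2 cultures held similar Runx2 mRNA, 294 ± 0.888 CPM (SD, n = 2) and 309 ± 25.8 CPM (SD, n = 3). Itgb3 averaged 3.51 CPM in the full length Runx2 cultures and 34.1 CPM in the OE Runx2 cultures. The sets come from separately processed tables with different controls, and this difference was not tested.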
